A study of Mus musculus with 12 samples.

Results

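The genes described here are 10 genes of the MHC class II presentation pathway of the mouse, chosen by symbol: H2-Aa, H2-Ab1, H2-Eb1, H2-Oa, H2-Ob, H2-DMa, H2-DMb1, H2-DMb2, Cd74 and Ciita. All 10 were found among the 24982 gene symbols of every library. The RNA came from B lymphocytes taken from the spleens of mice 6 weeks old, with 4 libraries in each of 3 groups. One group was wild type (WT). Another was Eμ-Myc, in which the enhancer of the immunoglobulin heavy-chain locus drives a Myc transgene in B-lineage cells. The last, written Eμ-Myc;PRPS2 KO and called the knockout group below, carried Eμ-Myc together with loss of PRPS2, an enzyme that makes the phosphoribosyl pyrophosphate used in nucleotide synthesis. All 8 libraries outside WT thus carried Eμ-Myc, and the knockout group alone lacked PRPS2. The series asks how loss of PRPS2 meets the gene expression programme set by Myc. Strain, sex, the number of mice behind a library and the extent of the deletion in the body are not given in the sources used here.

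MHC class II molecules are pairs of an alpha and a beta chain that carry peptides from the endosome to the cell surface and show them to CD4 T cells. B cells carry them at rest, together with dendritic cells and macrophages. H2-Aa and H2-Ab1 encode the 2 chains of I-A, and H2-Eb1 encodes the beta chain of I-E. The invariant chain Cd74 fills the peptide groove of newly made molecules, H2-DM (H2-DMa with H2-DMb1 or H2-DMb2) exchanges the last remnant of that chain for peptide, and H2-O (H2-Oa with H2-Ob), found mainly in B cells, restrains H2-DM. Ciita is a coactivator that does not bind DNA itself and is drawn to these promoters by the RFX, CREB and NF-Y factors sitting on the X and Y boxes.

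Values are coverages per gene, scaled between libraries, with the SD over 4 libraries. The coverage of a library summed to between 1277305.5 and 1885768.9, and how many reads stand behind a value is not known. Prps2 averaged 128 ± 17.9 in WT and 244 ± 35.7 in Eμ-Myc. Its knockout mean was 16.9 ± 1.54, which is 6.93% of that of Eμ-Myc. Myc averaged 279 ± 53.7 in WT and 1896 ± 307 in Eμ-Myc, and it was 1141, 1714, 2858 and 3115 in knockout libraries 1 to 4. The knockout libraries fell into pairs. Over 7773 genes, libraries 3 and 4 differed by a median of 0.0687 on the log2 scale and libraries 1 and 2 by 0.144, whereas each of the first pair differed from each of the second by 0.414 to 0.546. The values of libraries 3 and 4 were not identical, since Lyz2, a macrophage gene, stood at 324 in one and 206 in the other. That does not show whether the samples were separate. Nothing in the labels sets 2 of these 4 libraries apart, so calls in the knockout group are given with all 4 and also without either pair. Without libraries 1 and 2, 37.9% of all genes were called lower and 32.6% higher against WT, and 17.7% and 8.27% against Eμ-Myc. Without libraries 3 and 4 these shares were 2.81% and 9.11% against WT, and 1.36% and 2.21% against Eμ-Myc. The B-cell genes Cd79a, Cd79b and Ms4a1 were present in all 12 libraries, with Cd79a between 1175 and 2330.1, as the label of B lymphocytes says. Markers of T cells were also present, most of all in WT, and are taken up with the other cell types below.

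On the assembly GRCm38, which is that of the files (mm10), the 8 H2 genes lie within 224 kb at chr17:34092340-34316674. Ciita lies on the plus strand at chr16:10480059-10528418 and Cd74 on the plus strand at chr18:60803848-60812652. In the GENCODE M21 annotation Ciita, H2-Eb1, H2-Oa and H2-DMa overlap genes on the other strand, H2-DMa and Cd74 also overlap a gene on the same strand (CR974462.3 and Mir5107), and whether the deposited coverage was separated by strand is not stated.

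H2-DMb1 and H2-DMb2 are near copies of each other: 1093 bases of their transcripts aligned with 95.33% identity, and 27.2% of the 50-base windows of the H2-DMb1 transcript occur unchanged in that of H2-DMb2. The split of coverage between these copies is therefore uncertain.

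The promoters are shown because the genes moved together and are known to be read through shared boxes. RefSeq windows of GRCm38.p6, from 250 bases before to 50 bases after a start, were found for 7 of the 10 genes, the others being H2-Ab1, Cd74 and Ciita. The Y-box letters CCAAT were searched on both strands and occurred in 7 of the 8 windows of these 7 genes, against 37.4% of 32851 windows of this length. H2-DMa has 2 windows, and the one without these letters is the eighth. The letters AGNNACNGA, 1 fixed form of the X-box core, occurred in 4 of the 8 windows, against 17.7%. A match could lie anywhere in a window, so this is not a count of X boxes. H2-Oa held 3 matches and H2-Ob 1, and neither had the spaced pair that follows. Both together with 10 to 30 bases between them occurred in H2-Eb1 and H2-DMb1, with gaps of 24 and 25 bases, and in 1.19% of all windows. The E box CACGTG, the letters that Myc is known to bind, occurred in 0 of the 8 and in 7.15% of all windows. In the stretches below, each 5′ to 3′ on the strand of its gene, capitals mark matches to either box, and ATTGG is CCAAT read on the other strand. H2-Aa is from chr17:34287857-34287916 (minus strand), H2-Eb1 from chr17:34305763-34305822 (plus strand) and H2-Ob from chr17:34238803-34238862 (plus strand), with the Y letters 48, 59 and 57 bases before the start. A further match in H2-Eb1 lies 35 bases before the start, and in the windows of the other genes the distances ran from 43 bases in H2-Oa to 198 in H2-DMa. Within the printed stretches the X letters in the form searched are in H2-Eb1 only. That does not show that H2-Aa or H2-Ob lacks an X box there, since other forms were not searched.
H2-Aa: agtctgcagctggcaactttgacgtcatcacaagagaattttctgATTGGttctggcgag
H2-Eb1: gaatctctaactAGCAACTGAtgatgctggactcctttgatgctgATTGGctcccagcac
H2-Ob: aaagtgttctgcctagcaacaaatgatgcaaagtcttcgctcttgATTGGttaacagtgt

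The near copies H2-DMb1 (chr17:34153085-34153114, plus strand) and H2-DMb2 (chr17:34145114-34145143, plus strand) are set side by side over the 30 bases that hold these X letters, to show how these near copies differ there. Counted from 1 at the 5′ end, with the base of H2-DMb1 first, they differ by G13T and T18C, and the letters searched are in H2-DMb1 only.
H2-DMb1: gaggtttacctAGTAACTGAtgatgctagg
H2-DMb2: gaggtttacctattaaccgatgatgctagg

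Cd74 was the most abundant of the 10 genes, and in WT its coverage ranked between 1 and 3 among all genes of a library. Its mean in WT was 11567 ± 1887, followed by H2-Aa at 3193 ± 649, H2-Ab1 at 2811 ± 661 and H2-Eb1 at 1944 ± 406. Ciita at 518 ± 183, H2-Ob at 504 ± 128, H2-DMb2 at 496 ± 132 and H2-DMa at 483 ± 111 were next and did not differ from each other beyond their spread. H2-Oa at 314 ± 95.4 and H2-DMb1 at 184 ± 36.9 were lowest. Such comparisons between genes are on coverage, taken as a mean over the length of a gene, although the length used is not stated. The 10 genes together held 1.19% to 1.86% of a WT library's coverage, 0.765% to 0.994% in Eμ-Myc, and 1.19%, 1.05%, 0.359% and 0.368% in knockout libraries 1 to 4.

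**Figure D1:**
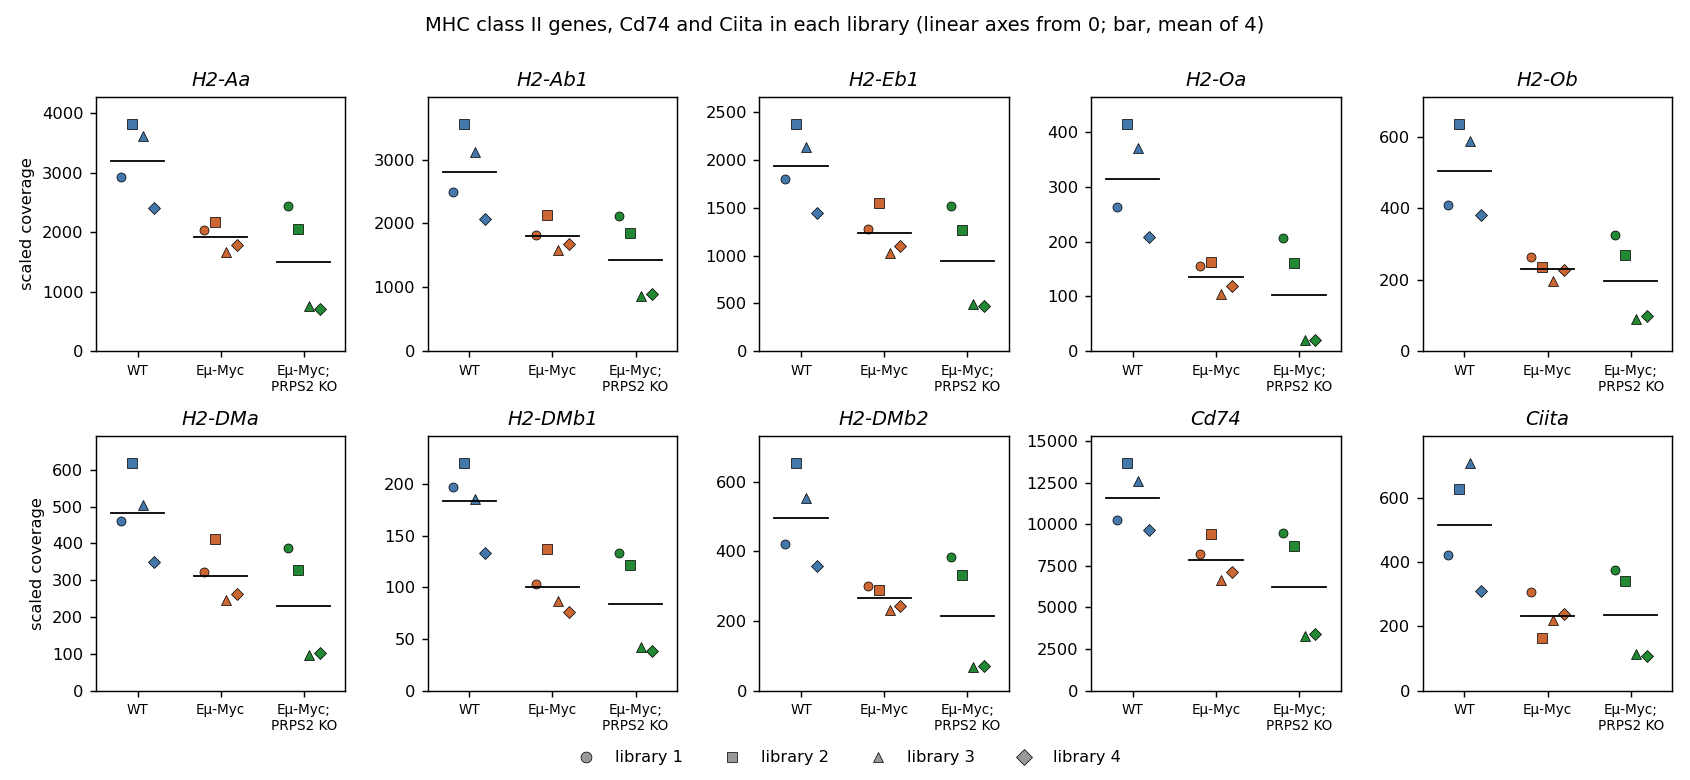
Scaled coverage (linear axes from 0) of the 10 genes in each of the 12 libraries. Each symbol is 1 library, its shape gives the library number and the bar is the mean of 4. For every gene knockout libraries 3 and 4 lie below all other libraries, while libraries 1 and 2 lie among or above those of Eμ-Myc.

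All 10 genes were lower in Eμ-Myc than in WT and passed the test in limma (adjusted p under 0.05 over the 12689 genes tested). Fold changes ran from -0.56 for Cd74 to -1.18 for H2-Oa on the log2 scale, with a median of -0.80 beside -0.06 over all genes tested. Calls were frequent in this comparison: 27.3% of all genes were called lower and 28.7% higher. For 6 of the 10 genes every Eμ-Myc library lay below every WT library, which held for 25.4% of all genes tested. The exceptions were H2-Ab1, H2-Eb1, H2-DMa and H2-DMb1, each of which overlapped WT library 4, the lowest WT library for all 10 genes.

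Among the chains of I-A and I-E, H2-Aa held 2927, 3819, 3619 and 2406 in WT libraries 1 to 4 and 2029.7, 2169, 1675 and 1778 in Eμ-Myc libraries 1 to 4. The groups did not overlap, and the log2 fold change was -0.72 (SE 0.16, limma adjusted p 0.00409). H2-Ab1 held 2499.8, 3558, 3122 and 2063 in WT and 1823, 2125, 1588 and 1682 in Eμ-Myc. Only Eμ-Myc library 2 reached above the lowest WT library, and the log2 fold change was -0.62 (SE 0.17, adjusted p 0.0140). H2-Eb1 gave a like value of -0.64 (SE 0.18, adjusted p 0.0142), its mean falling to 63.9% of that of WT. The invariant chain Cd74 held 10292, 13685, 12596 and 9693 in WT and 8198, 9436, 6643 and 7125 in Eμ-Myc, without overlap. Its log2 fold change of -0.56 (SE 0.15, adjusted p 0.0108) was the smallest of the 10, although in absolute coverage its loss was the greatest.

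Both chains of H2-O fell further than those of I-A. H2-Oa held 263, 415, 371 and 208 in WT and 156, 164, 105 and 119 in Eμ-Myc, a mean of 43.2% of WT (log2 fold change -1.18, SE 0.23, limma adjusted p 0.00259). H2-Ob held 408, 637, 589.7 and 381 in WT and 263, 236, 196 and 229 in Eμ-Myc, a mean of 45.9% of WT (log2 fold change -1.09, SE 0.18, adjusted p 0.000878). Of the H2-DM genes, H2-DMb1 changed by -0.88 (SE 0.21, adjusted p 0.00618) and H2-DMb2 by -0.87 (SE 0.19, adjusted p 0.00396). H2-DMa changed by -0.64 (SE 0.21, adjusted p 0.0258) and was the least firm of the 10. It no longer passed when any of 4 libraries was left out: WT library 2 (adjusted p 0.0648) or 3 (0.0596), or Eμ-Myc library 3 (0.0742) or 4 (0.0697).

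Ciita held 424, 628, 709.9 and 311 in WT and 307, 164, 222 and 239 in Eμ-Myc. WT library 4 was the lowest of WT and lay just above Eμ-Myc library 1, the highest of Eμ-Myc. The mean fell from 518 ± 183 to 233 ± 59.2, which the fit put at -1.11 on the log2 scale (SE 0.28, limma adjusted p 0.00821). When all 12 libraries were fitted together, so that the wide spread of the knockout group entered the error, only H2-Ob remained called (adjusted p 0.0387), and Ciita had an adjusted p of 0.0542. That fit still called 5596 of 12689 genes, 3308 of them higher.

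**Figure D2:**
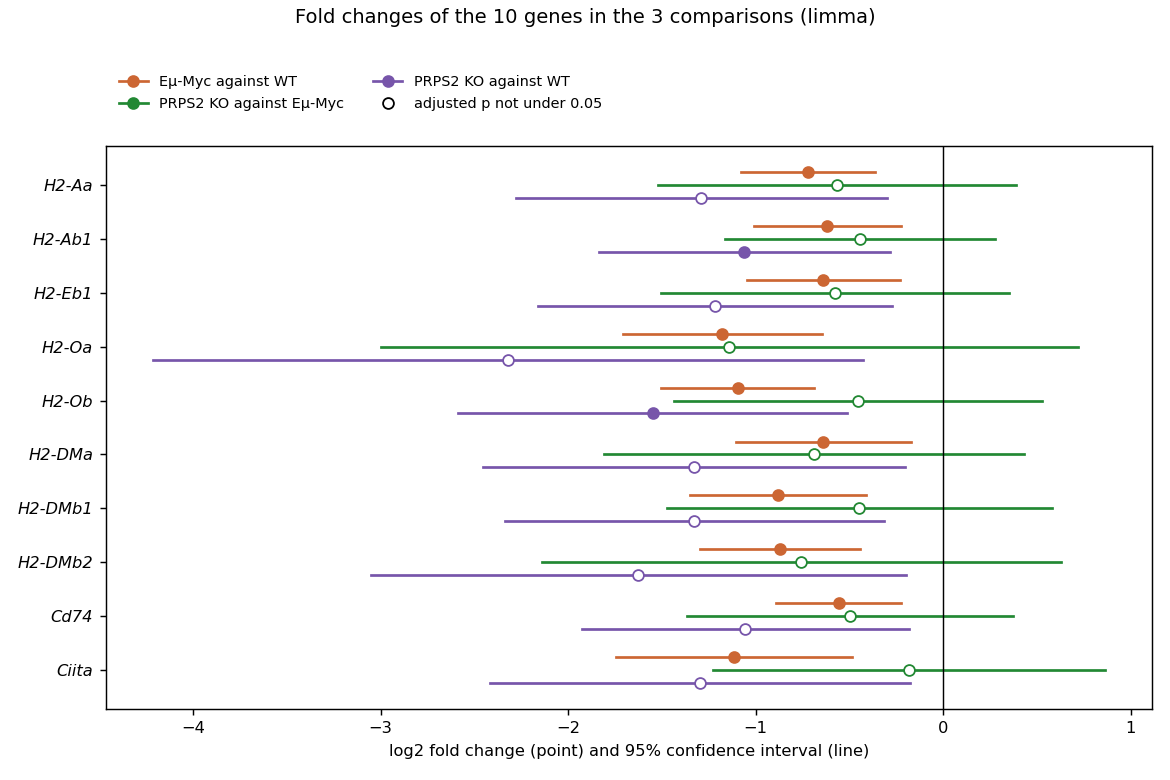
Log2 fold change (points) with its 95% confidence interval (lines) of each gene in the 3 comparisons, from limma. Filled points passed an adjusted p of 0.05. All 10 genes were called in Eμ-Myc against WT, none when the knockout group was set against Eμ-Myc, and only H2-Ab1 and H2-Ob when it was set against WT.

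Loss of PRPS2 on the Eμ-Myc background gave no called gene among the 10, and the 4 knockout libraries did not move together. Relative to the Eμ-Myc mean, Cd74 stood at 120.4%, 111%, 41.9% and 43.2% in knockout libraries 1 to 4. Ciita stood at 161%, 147%, 49.5% and 46.5%, so libraries 1 and 2 were well above the Eμ-Myc mean and libraries 3 and 4 near or below 50% of it. The chains of I-A and I-E lay between 102% and 128% in libraries 1 and 2 and between 37.5% and 49.3% in libraries 3 and 4. H2-Oa spread most widely, with 207, 161, 19.7 and 19.7 in coverage, or 153%, 119%, 14.5% and 14.5% of the Eμ-Myc mean. Its partner H2-Ob fell less far, with 325, 271, 90.5 and 98.9 in coverage, or 39.1% and 42.8% of the Eμ-Myc mean in libraries 3 and 4. H2-DMb2 stood at 24.9% and 26.4% there, H2-DMa at 31.5% and 32.6%, and H2-DMb1 at 42.3% and 38.3%.

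Over all 4 knockout libraries the fitted changes against Eμ-Myc ran from -1.14 for H2-Oa (SE 0.81) to -0.18 for Ciita (SE 0.45), with a median of -0.53 beside -0.04 over all genes. None passed: 0 of the 10 genes were called and 0 had an unadjusted p under 0.05, the adjusted p of each was 1.00, and the groups overlapped for all 10. Of 12518 genes tested, 1 gene was called lower (0.00799%), which was Prps2, 0% were called higher, 118 had an unadjusted p under 0.05, and 0.791% had all knockout libraries below all Eμ-Myc libraries. The 95% confidence intervals were wide, from -1.23 to 0.86 for Ciita and from -1.37 to 0.37 for Cd74, so neither a fall to less than 50% nor a rise is outside them. The direction rested on which libraries entered. Without libraries 3 and 4 all 10 genes were higher than in Eμ-Myc, by 0.14 for H2-Ab1 to 0.65 for Ciita, and 0 were called. Without libraries 1 and 2 all 10 were called lower, from -1.02 for Ciita to -2.73 for H2-Oa, with 2 knockout libraries against 4. In that fit 17.7% of all genes were called lower and 8.27% higher. Limma's library quality weights, which give less weight to libraries with large residuals, also called all 10 lower, with a median of -1.13. With these weights 6947 of 12518 genes were called, 3034 of them higher, against 1 gene without them.

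Against WT, all 10 genes were lower in the knockout group, with a median log2 fold change of -1.31 beside -0.08 over all genes. Of these, 2 passed the test: H2-Ab1 (-1.06, SE 0.34, limma adjusted p 0.0466) and H2-Ob (-1.55, SE 0.45, adjusted p 0.0378). For comparison, 11% of the 12692 genes tested were called lower and 19.9% higher. The other 8 had an unadjusted p under 0.05 and adjusted p from 0.0514 for H2-DMb1 to 0.0722 for H2-DMb2. H2-Oa had the greatest point estimate, -2.32 (SE 0.82, adjusted p 0.0606), and Ciita changed by -1.30 (SE 0.49, adjusted p 0.0690). All knockout libraries lay below all WT libraries for H2-Oa, H2-Ob, H2-DMb1 and Cd74, 4 of the 10, as for 15.9% of all genes. Knockout library 1 reached into the WT range for the other 6. Both calls were lost without any 1 WT library and without knockout library 3 or 4, each of which left 0 of the 10 called. They were also lost with the replicate number as a block, where H2-DMb1 alone was called. Without knockout library 1, or without library 2, all 10 were called. The number of all genes called also varied widely when a library was left out, and its range is given under processing below. Without libraries 3 and 4 together the median was -0.47 with 0 called, and without libraries 1 and 2 it was -2.14 with 10 called. Of all genes, 2.81% were called lower in the former fit and 37.9% in the latter. The knockout groups of the last 2 comparisons are the same libraries, and Eμ-Myc and WT each serve as control in 2 comparisons, so the 3 sets of values are not independent.

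The balance between the genes was compared within a library, as a difference of log2(scaled coverage + 0.5), so that scaling enters only through the added 0.5. These differences were not tested. Cd74 kept close to the mean of H2-Aa, H2-Ab1 and H2-Eb1: the difference was between 2.10 and 2.36 in all 12 libraries. H2-Aa and H2-Ab1, which form 1 molecule, differed by 0.10 to 0.23 in WT, 0.03 to 0.15 in Eμ-Myc, and 0.21, 0.15, -0.20 and -0.31 in knockout libraries 1 to 4. The I-A alpha chain was thus above the beta chain in 10 libraries and below it in knockout libraries 3 and 4. H2-O minus H2-DM averaged 0.16 ± 0.15 in WT and -0.18 ± 0.15 in Eμ-Myc, with ranges that met at -0.04. Its knockout mean was -0.35 ± 0.27. H2-Oa minus H2-Ob was between -0.94 and -0.53 in 10 libraries and -2.17 and -2.30 in knockout libraries 3 and 4. H2-DMb2 minus H2-DMb1 was between 1.07 and 1.68 in the same 10 libraries and 0.64 and 0.86 in those 2. These last 2 differences were chosen after their values were seen. Ciita minus the mean of H2-Aa, H2-Ab1 and H2-Eb1 was -2.63 to -2.03 in WT and -2.63 to -2.30 in the knockout group. In Eμ-Myc it was -2.45, -3.55, -2.66 and -2.63, so library 2 stood below the rest.

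**Figure D3:**
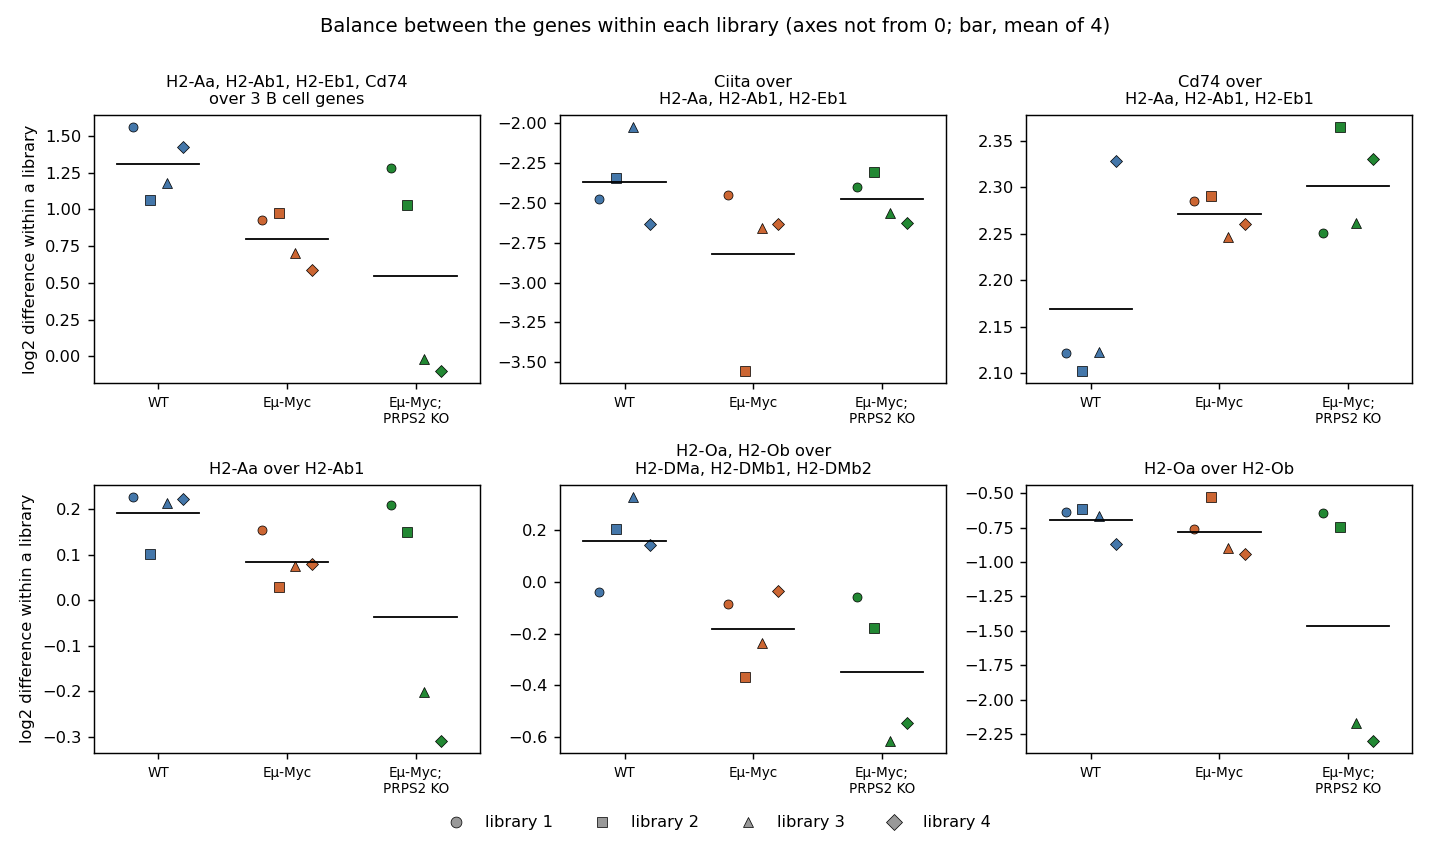
Log2 differences between genes within each library, with 1 symbol per library and a bar for the mean of 4 (axes do not start at 0). Cd74 over the I-A and I-E chains stays within 2.10 to 2.36, while H2-Oa over H2-Ob is lowest in knockout libraries 3 and 4, at -2.17 and -2.30.

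Set against 3 B-cell genes, the class II genes were also lower in Eμ-Myc, in a difference that was not tested. The mean log2 coverage of H2-Aa, H2-Ab1, H2-Eb1 and Cd74 minus that of Cd79a, Cd79b and Ms4a1 was 1.56, 1.07, 1.18 and 1.43 in WT and 0.93, 0.98, 0.70 and 0.58 in Eμ-Myc, without overlap. In knockout libraries 1 and 2 it was 1.28 and 1.03, and in libraries 3 and 4 it was -0.02 and -0.10, where the B-cell genes had the higher mean. These 3 are a part of the B-cell identity list, in which Cd22, a receptor that restrains B-cell signalling, fell by 1.00 on the log2 scale (limma adjusted p 0.00383), while the other 8 were not called. In bulk RNA, fewer cells of a type and less RNA per cell cannot be told apart.

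The factors that hold Ciita at the promoters did not move one way in Eμ-Myc against WT. Of 7 promoter factors, 3 rose and 3 fell, with a median of 0.19, beside 28.7% and 27.3% of all genes. The rise was in the NF-Y subunits, which bind the Y box: Nfya by 0.45 (limma adjusted p 0.00516), Nfyb by 0.46 (0.00675) and Nfyc by 0.37 (0.0150). Rfxank, a subunit of the RFX complex on the X box, fell by 0.73 on the log2 scale (adjusted p 0.00360), and the other 2 that fell, named after their values were seen, were Rfx5 and Creb1. In the knockout group against WT, 1 of the 7 rose (Nfya) and 1 fell (Rfxank), near the 19.9% and 11% of all genes. Without knockout libraries 3 and 4, 0 of the 7 were called against WT, and without libraries 1 and 2, 3 rose and 2 fell, beside 32.6% and 37.9% of all genes. Against Eμ-Myc 0 of the 7 were called, with all 4 libraries and without either pair.

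Of 11 genes that act on Ciita, 7 fell in Eμ-Myc, 1 rose and 3 were not called, with a median of -1.003. Over all genes 27.3% fell, and the difference between the lists was not tested. The list mixes activators and repressors. Irf1, which carries the interferon-gamma signal to the Ciita gene, fell by 1.34 on the log2 scale (limma adjusted p 0.000366), and Foxo1, a transcription factor of resting lymphocytes, fell by 1.34 (0.000122). Bcl6, a repressor that marks germinal-centre B cells, fell by 2.15 (adjusted p 0.00025). The gene that rose was Zbtb32, a zinc finger repressor of Ciita, from 9.16 ± 1.70 in WT to 22.1 ± 6.40 in Eμ-Myc (log2 fold change 1.20, adjusted p 0.00124). It was 18.1, 13.1, 45.4 and 43.8 in knockout libraries 1 to 4, while in Eμ-Myc the lowest Zbtb32, 17.1, was in library 2, the library of that group with the lowest Ciita. Zbtb32 was named after its values were seen. In the knockout group against WT 1 of the 11 rose and 3 fell, beside 19.9% and 11% of all genes. That became 1 fallen (Irf1) without knockout libraries 3 and 4 (2.81% of all genes lower), and 1 risen and 8 fallen without libraries 1 and 2 (32.6% higher and 37.9% lower). Against Eμ-Myc 0 were called with all 4, 1 rose (Foxo1) without libraries 3 and 4 (2.21% higher), and 1 rose and 8 fell without libraries 1 and 2 (8.27% higher and 17.7% lower).

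Of 9 genes that process antigen and the invariant chain in the endosome, 2 fell in Eμ-Myc and 7 were not called, a share no higher than the 27.3% of all genes that fell. Ctss, the protease that trims Cd74, fell by 0.71 on the log2 scale (limma adjusted p 0.00696) and Ctsh, an aminopeptidase, by 0.72 (0.0110). Ctsc at -0.38 (adjusted p 0.0714) and Ifi30, the endosomal thiol reductase, at -0.38 (0.103) did not pass. Of the 3 genes of class II turnover at the cell surface, 2 fell: March1, a ubiquitin ligase that removes class II from the surface, by 1.57 (adjusted p 0.000587), and Cd83, which opposes March1, by 1.68 (0.000931). The related March8 changed by 0.57 (adjusted p 0.0740). H2-Eb2, a further beta-chain gene, fell by 1.46 (adjusted p 0.00124), and H2-Ea-ps was at or near 0 in all libraries. Against WT in the knockout group, 1 of the 9 endosomal genes and 0 of the 3 turnover genes were called lower, near the 11% of all genes, and H2-Eb2 was called lower. None of these had a call in the knockout group against Eμ-Myc. Without knockout libraries 3 and 4 none was called in either comparison. Without libraries 1 and 2, 6 endosomal genes, 2 turnover genes and H2-Eb2 were called lower against WT (37.9% of all genes), and 4, 2 and 0 against Eμ-Myc (17.7%).

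**Figure D4:**
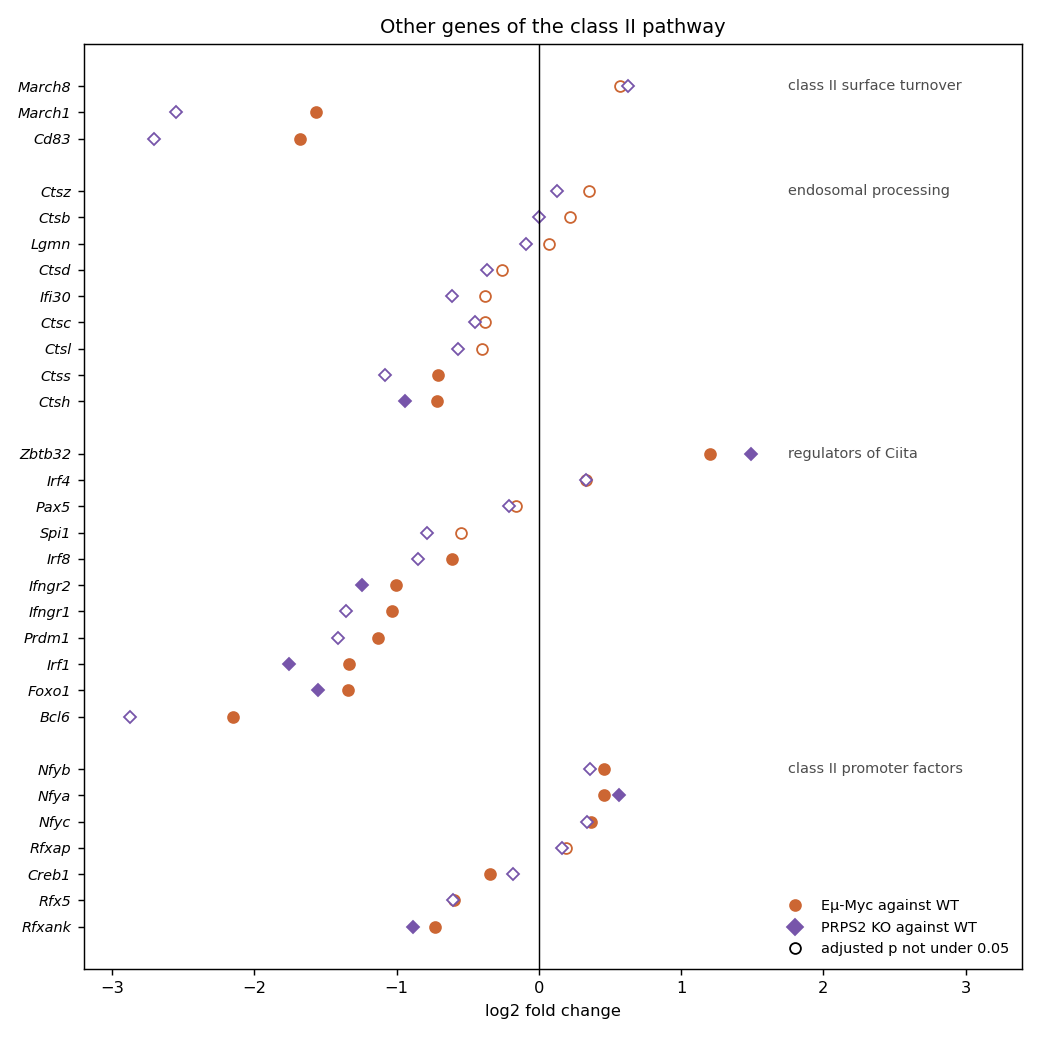
Log2 fold changes of the promoter factors, regulators of Ciita, endosomal genes and surface turnover genes, for Eμ-Myc (circles) and the knockout group (diamonds), each set against WT. Filled symbols passed an adjusted p of 0.05. Among the circles Zbtb32 lies furthest to the right at 1.20, and Bcl6 furthest to the left at -2.15.

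The 224 kb that hold the H2 genes also hold 5 other genes of the files, Brd2, Psmb9, Tap1, Psmb8 and Tap2. The last 4 serve class I presentation, by cutting peptides or carrying them into the endoplasmic reticulum. In Eμ-Myc against WT, Tap1 (-0.83, limma adjusted p 6.67e-05) and Tap2 (-0.89, 0.000572) fell, while Psmb9 (-0.34, 0.0535), Psmb8 (-0.25, 0.123) and Brd2 (-0.09, 0.421) were not called. Over all genes 27.3% were called lower there. The log2 fold changes of all 5 were below 0, and their difference from the class II genes was not tested. In the knockout group against WT, where 11% of all genes were called lower, 4 of these 5 were, the exception being Brd2. Without knockout libraries 3 and 4 only Tap1 was called (2.81% of all genes lower), and without libraries 1 and 2 the same 4 were (37.9%). Against Eμ-Myc 0 of the 5 were called with all 4 libraries and 0 without libraries 3 and 4 (1.36% of all genes lower). Tap1 and Tap2 were called lower without libraries 1 and 2 (17.7%).

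Markers of dendritic, T and NK cells were lower in Eμ-Myc than in WT along with the 10 genes, and those of monocytes and macrophages were not called. The summed coverage of 10 dendritic-cell markers was 260.5 to 360.1 in WT, 104 to 179 in Eμ-Myc, and 255, 191, 34.4 and 26.1 in knockout libraries 1 to 4. In Eμ-Myc against WT 6 of the 10 fell, beside 27.3% of all genes, among them Itgax by 1.33 on the log2 scale. The 4 that were not called included Xcr1 (0.12) and Clec9a (-0.24), receptors of cross-presenting dendritic cells. For 12 monocyte and macrophage markers the sums were 4401 to 7834 in WT, 1794 to 5579 in Eμ-Myc, and 5783, 4482, 1020.3 and 1030.0 in the knockout libraries, and 0 of 12 were called in any of the 3 comparisons with all libraries. All 12 T-cell markers fell in Eμ-Myc (sums of 828 to 4638 in WT and 178 to 253 in Eμ-Myc), and so did all 8 NK markers, beside the same 27.3%. In the knockout libraries the T-cell sums were 1013, 1094, 75.3 and 74.4. Against WT or Eμ-Myc, no marker of these 4 lists was called with all 4 knockout libraries. Without knockout libraries 1 and 2, all 10 dendritic, 12 macrophage, 12 T-cell and 8 NK markers were called lower against WT, where 37.9% of all genes were, and 10, 9, 11 and 8 were lower against Eμ-Myc, where 17.7% were. Without knockout libraries 3 and 4, 12 of 12 T-cell, 6 of 8 NK and 2 of 10 dendritic markers were called higher against Eμ-Myc, where 2.21% of all genes were, and 1 dendritic marker was called lower against WT. No marker of these 4 lists was at 0 throughout a group. The part of these cells in the class II result was not tested.

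Markers of mature B cells also fell in Eμ-Myc along with the 10 genes, while more of the immature markers rose than fell. Of 9 genes of B-cell identity 1 fell in Eμ-Myc, Cd22, and the sums were 8259 to 15172 in WT, 8735 to 11124 in Eμ-Myc, and 9075, 9224, 7316 and 7702 in the knockout libraries. By contrast all 9 tested markers of mature B cells fell, with a median of -1.37. In the same comparison 27.3% of all genes fell. The sums of the mature markers were 4031 to 6049.8 in WT, 1229 to 1862 in Eμ-Myc, and 2709.9, 2290.1, 515 and 532 in the knockout libraries. Fcer2a, the IgE receptor of follicular B cells, was at 1049, 834, 3.47 and 2.53 in the knockout libraries, and Cr2, a complement receptor, at 68.5, 61.8, 0.105 and 0.316. Most identity genes were lower in knockout libraries 3 and 4 than in libraries 1 and 2. These were Cd79a, Cd79b, Ms4a1, Cd22, Blk, Cd37 and Blnk. The falls differed in size, with Cd79b at 2502, 2527, 2443 and 2481 and Cd22 at 846, 793, 450 and 449. Pax5 stood at 148, 153, 144 and 149. Only Ebf1 was higher in both of libraries 3 and 4, at 683, 786, 814 and 930. Of 9 tested markers of immature B cells 5 rose and 1 fell in Eμ-Myc, where 28.7% of all genes rose and 27.3% fell. In the knockout group against WT, 4 of 9 mature markers were called lower (11% of all genes) and 5 of 9 immature markers higher (19.9%), and against Eμ-Myc 0 were. For the fits without libraries 1 and 2, the shares of all genes called lower and higher were 37.9% and 32.6% against WT. Against Eμ-Myc they were 17.7% and 8.27%. For the fits without libraries 3 and 4 they were 2.81% and 9.11% against WT, and 1.36% and 2.21% against Eμ-Myc. Without knockout libraries 1 and 2 all 9 mature markers were lower in both comparisons. Without libraries 3 and 4, 2 were lower against WT and 1 was higher against Eμ-Myc. Of the immature markers, 2 of 6 tested were higher and 1 lower against WT without libraries 1 and 2, and 4 of 9 were lower against Eμ-Myc. Without libraries 3 and 4, 1 was higher in each comparison. Of the 9 identity genes, 1 was lower against WT and 0 were called against Eμ-Myc with all 4 libraries, 3 were lower in both without libraries 1 and 2, and 0 were called in either without libraries 3 and 4. The part of B-cell stage in the class II result was not tested.

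**Figure D5:**
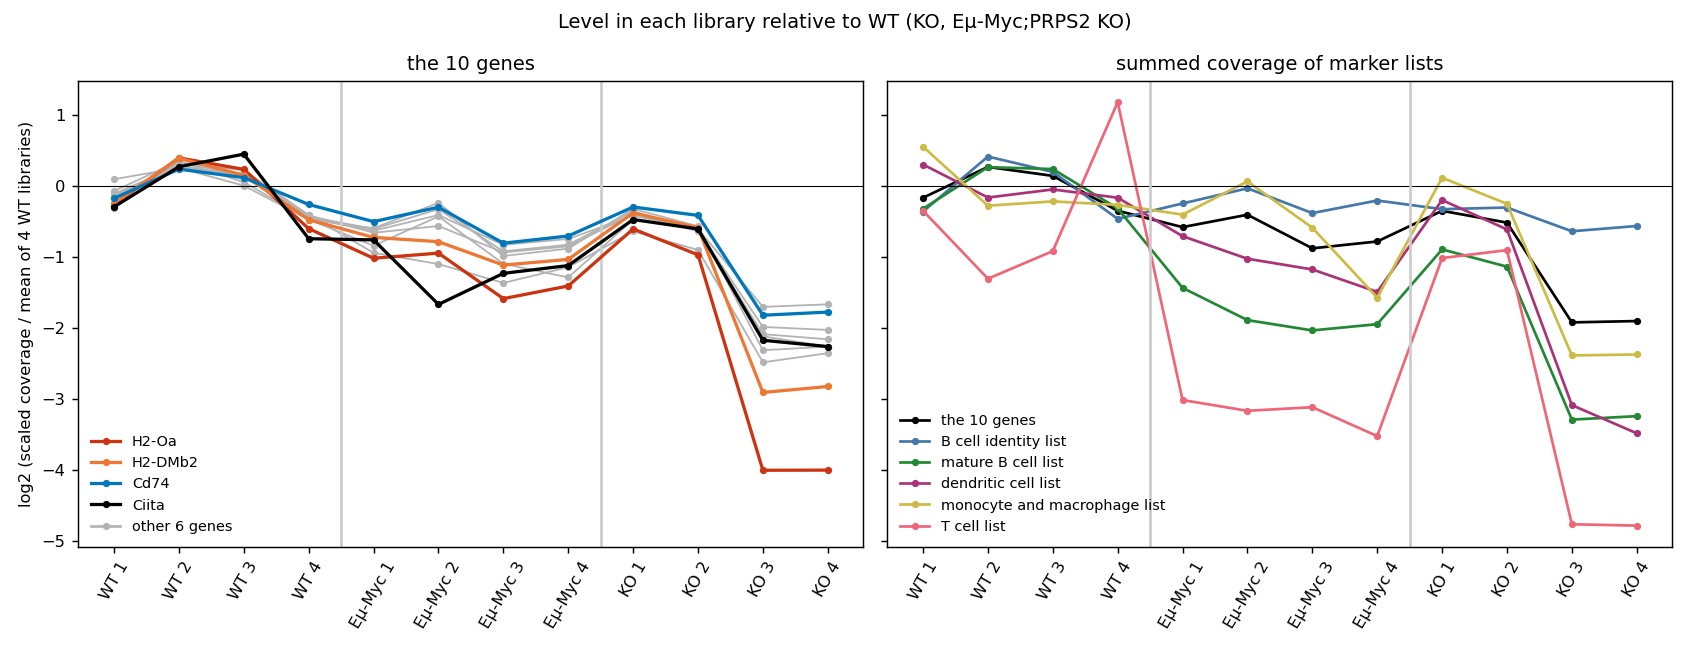
Log2 of scaled coverage over the mean of the 4 WT libraries, for the 10 genes (left) and for the summed coverage of marker lists (right), in each library. H2-Oa falls furthest of the 10 genes in knockout libraries 3 and 4. The T-cell, dendritic-cell, monocyte and macrophage, mature B-cell and B-cell identity lists are all lowest there too. Of these 5 lists the B-cell identity list changes least.

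Genes with a like profile were sought among the 9654 genes whose scaled coverage averaged 8 or more, by the root mean square difference of centred log2 profiles over the 12 libraries. The 5 nearest to Ciita were Cd180 (0.129), Zfp608 (0.174), Nxpe2 (0.175), Kmo (0.183) and Zc3h12d (0.186). Of the other 9 genes H2-Ob was nearest to Ciita (0.248) and H2-Oa farthest (0.695). The 5 nearest to the mean profile of H2-Aa, H2-Ab1, H2-Eb1 and Cd74 were Gbp3 (0.145), Gng2 (0.147), Ctss (0.151), Unc93b1 (0.152) and Sp140 (0.152). H2-DMa (0.162) and H2-DMb1 (0.178) lay almost as near to that profile, while Ciita (0.356), H2-DMb2 (0.340) and H2-Oa (0.701) lay farther away.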

How the data were processed

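Polyadenylated RNA of splenic B lymphocytes was made into directional libraries, per the labels' protocols. The authors deposited 1 file per library with a coverage signal per gene, given to 1 decimal. The submitters' processing notes name the build mm10, DESeq and R 4.3.3, with no role. The aligner, the counting step and the annotation are not given in the sources used here, the depth behind a value is unknown, and no counting interval is given. Coverage is not counts, so no count model was used.

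Libraries were scaled by unweighted trimmed means of log ratios (30% of ratios and 5% of means trimmed at each end) over the 10992 genes with a coverage of at least 1 in all 12 libraries. A gene entered a fit when 4 or more of its 8 libraries reached a scaled coverage of 1, and was tested on log2(scaled coverage + 0.5) with limma 3.58.1 in R 4.3.3 (trended prior, robust empirical Bayes, two-sided), with 2 groups per fit. Fold changes are on that scale. Benjamini-Hochberg adjustment ran over all genes tested and calls were at an adjusted p under 0.05. All 10 genes passed the filter in all 3 comparisons. The fits were tested on simulated data, and the outcome is not given here. Sequences, positions and figures used RefSeq promoter windows, GENCODE M21, Python 3.11.15, Biopython 1.88 and matplotlib 3.10.9. No protein table was used, so H2-DMb1 and H2-DMb2 were compared by transcript.

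The 10 genes, the lists and the alternatives were chosen with earlier results of these data known. All 10 genes were named in each comparison, and of each pathway list the up to 4 with the smallest adjusted p in Eμ-Myc against WT. Of cell-type lists only counts, sums and defining markers were named. The lists of plasma cells (2 of 7 higher and 2 lower in Eμ-Myc against WT) and of erythroid cells (0 of 8 called) were also counted. Of the lists 2 genes are not reported here, and the lists were counted without them. The labels do not say that replicates came from separate mice, so p-values measure the spread between these libraries. Same-numbered libraries of the knockout group and Eμ-Myc deviated together (correlations 0.692, 0.165, 0.251 and 0.652 across genes), which meets the criterion for pairs, from the values alone. The reported values come from the fit without the pairs, and the fit with them is an alternative. In the other comparisons not every correlation was over 0.1.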

Additional observations from a re-analysis of the deposited data

Results flagged for a closer look

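Of 54 groups of 4 libraries tested for a library far from the others, 2 met the criterion, and chance gives about 1 in 20. The difference between H2-Aa and H2-Ab1 was 0.10 in WT library 2 against 0.21 to 0.23 in the other WT libraries, a gap of 0.885 of the group's range. Cd74 minus the mean of H2-Aa, H2-Ab1 and H2-Eb1 was 2.33 in WT library 4 against 2.10 to 2.12 in the others, a gap of 0.91 of the range. WT library 4 was also the WT library with the lowest coverage of all 10 genes and the highest T-cell sum, 4638.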

How the results depend on the processing

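In Eμ-Myc against WT the 10 genes were called lower under every alternative but 5. All 12 libraries in one fit called 1 of the 10, with 5596 genes called in all. Leaving out WT library 2, WT library 3, Eμ-Myc library 3 or Eμ-Myc library 4 called 9 each. Those leave-outs called 6490, 6233, 5887 and 5860 genes in all, against 7099 in the main fit. Total coverage scaling moved the median of all genes from -0.06 to -0.19, and the median of the 10 genes was then -0.92. In the knockout group against Eμ-Myc, 0 of the 10 were called except with library quality weights (10, with 6947 genes called in all) and without knockout libraries 1 and 2 (10, with 3158 genes). Without knockout libraries 3 and 4, 442 genes were called and all 10 turned to a higher level, uncalled: H2-Aa 0.24, H2-Ab1 0.14, H2-Eb1 0.18, H2-Oa 0.45, H2-Ob 0.37, H2-DMa 0.23, H2-DMb1 0.37, H2-DMb2 0.43, Cd74 0.22 and Ciita 0.65. Leaving out 1 library at a time, Ciita ranged from -0.48 to 0.11 and was above 0 without knockout library 3 (0.08) and without library 4 (0.11). In the knockout group against WT, 2 of the 10 and 3930 genes were called. The members called were 5 with median-of-ratios scaling, 5 with factors against the geometric mean (added after the data were seen), 1 with no filter, 7 with a filter of 10 in every library (fewer genes tested), 10 with all 12 libraries in one fit (6105 genes), 10 with quality weights (10622 genes), 10 without knockout libraries 1 and 2 (8676 genes) and 0 without libraries 3 and 4 (1486 genes). Leaving out 1 library at a time gave 0 to 10 members and 796 to 6787 genes. The cause of these shifts was not tested. With the replicate number as a block, 10 members and 7298 genes were called in Eμ-Myc against WT, 0 and 1 when the knockout group met Eμ-Myc, and 1 and 1963 when it met WT, where the call was H2-DMb1 (adjusted p 0.0456), H2-Ab1 had 0.0527 and H2-Ob 0.0536. In Eμ-Myc against WT and in the knockout group against Eμ-Myc 4 of 8 libraries correlated best with their own number, and in the knockout group against WT 2 of 8. The pathway lists were recomputed without either pair of knockout libraries, and the other alternatives were not run for them. No depth limit can be stated, since the reads behind the coverage are unknown.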

Other observations

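In Eμ-Myc library 2, Ciita and most of the other 9 genes ranked at opposite ends of the group. This library held the highest coverage of its group for 7 of the 10 genes (H2-Aa, H2-Ab1, H2-Eb1, H2-Oa, H2-DMa, H2-DMb1 and Cd74), with Cd74 at 9436, and the lowest for Ciita, at 164 against 222 to 307 in the other 3. Rfx5, the DNA-binding subunit of the RFX complex, was also lowest there, at 69.9 against 101 to 119, and so was H2-Eb2, at 23.4 against 26.7 to 35.5. Rfxap, another RFX subunit, was highest there, at 31.9 against 21.8 to 25.2. This library differed from the other Eμ-Myc libraries by a median of 0.244 to 0.289 on the log2 scale, against 0.0772 to 0.167 among those. It also had the highest sum of monocyte and macrophage markers of the group, 5579, with Lyz2 at 2588 against 662 to 1512. These values come from 1 library, were picked after they were seen and were not tested.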
